A study of Homo sapiens with 6 samples.

Results

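AARS, WARS and AIMP2 are genes of tRNA charging, the step that loads each transfer RNA with its amino acid. They were selected by gene name from a table of 5681 genes, in which 3 rows carried these names. AARS encodes the cytosolic alanyl-tRNA synthetase, WARS the cytosolic tryptophanyl-tRNA synthetase, and AIMP2 a scaffold protein of the multi-tRNA synthetase complex. RNA-seq had been carried out on HT-29, an established human colorectal cancer cell line. The 3 libraries of the control group, shScramble (replicates 1 to 3), came from cells labelled WT that carried a scrambled short hairpin RNA. The 3 libraries of the shOGT group (replicates 4 to 6) came from cells labelled as OGT knock down, which carried a hairpin against OGT, the enzyme that attaches O-linked N-acetylglucosamine to nuclear and cytosolic proteins. All 6 share the cell line and the label of colorectal tumor growth as treatment, and the labels give neither the time after infection nor whether replicates were separate cultures. The p-values therefore measure only the spread between these libraries, which may be technical.

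An aminoacyl-tRNA synthetase activates its amino acid with ATP and joins it to the end of the matching tRNA, which then carries it to the ribosome. Several of the cytosolic synthetases are held in a large complex on the scaffold proteins AIMP1, AIMP2 and EEF1E1, whereas the alanyl and tryptophanyl enzymes work outside this complex. Mitochondria use a largely separate set of synthetases, which are encoded by nuclear genes. Transcription of many cytosolic synthetase genes is known to be driven by ATF4 when amino acids are short, and WARS is a classical gene of the interferon gamma response.

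The values are read counts divided by a size factor for each library (normalized counts), and they are not divided by gene length. Whole reads were recovered for 100% of them, with size factors from 1.09 to 1.13 in shScramble and from 0.879 to 0.950 in shOGT. The genes of the table took 4145921 to 4504303 reads per shScramble library and 3302558 to 3471647 per shOGT library. OGT itself had 9628, 11638 and 11619 normalized counts in shScramble and 484, 621 and 537 in shOGT, so that 4.99% of its level was retained. The table lists only genes past a 2-fold change and an adjusted p under 0.05 in the authors' own comparison. As a result, 47.2% of the 5671 genes tested here were called lower in shOGT, 52.2% were called higher, and 99.5% had groups that did not overlap. A gene was called where limma gave an absolute log2 fold change over 1 and a Benjamini-Hochberg adjusted p under 0.05. Membership of the table therefore nearly fixes a call, and the counts below say in which direction listed genes went, not how many genes of a pathway changed. The adjustment ran over genes already selected on these same libraries, so the adjusted p-values carry that selection and are not genome-wide. In bulk RNA, fewer cells of a type and less RNA per cell cannot be told apart.

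On GRCh38, AARS (ENSG00000090861) lies on the minus strand at chr16:70252295-70289543, WARS (ENSG00000140105) on the minus strand at chr14:100333788-100376805 and AIMP2 (ENSG00000106305) on the plus strand at chr7:6009245-6023834. Their merged exons hold 4498, 6358 and 1838 bases in GENCODE version 29, which lists 7, 44 and 4 transcripts. Each gene starts head to head with a gene on the other strand. AARS starts 120 bases from DDX19B, which encodes an RNA helicase of mRNA export. AIMP2 likewise starts 120 bases from PMS2, which encodes a DNA mismatch repair protein. WARS and WDR25 overlap by 388 bases at their starts. The stretches of 119 bases between the starts of AARS and DDX19B (minus strand, chr16:70289544-70289662) and of AIMP2 and PMS2 (plus strand, chr7:6009126-6009244) are shown because they lie between the starts of both genes of a pair. They were taken from RefSeq on GRCh38.p14 and read toward AARS or AIMP2, with CCAAT boxes on either strand in capitals:
AARS: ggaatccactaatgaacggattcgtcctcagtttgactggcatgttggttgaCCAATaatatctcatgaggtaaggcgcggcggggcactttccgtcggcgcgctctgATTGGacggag
AIMP2: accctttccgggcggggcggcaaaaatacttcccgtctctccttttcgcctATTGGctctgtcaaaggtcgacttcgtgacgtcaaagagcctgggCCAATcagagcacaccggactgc

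RefSeq promoter windows (250 bases before to 50 after a start) were held for all 3 genes, 1 for AARS (as AARS1), 2 for WARS (as WARS1) and 2 for AIMP2. They were searched on both strands for 5 motifs, and matches are descriptions of letters and not of bound sites. Distances here count from the RefSeq start, which for AARS is not the GENCODE start used above. The core TGATGNAA, to which dimers of ATF4 and C/EBP proteins bind, occurred in the AARS window alone of the 5. It lay in reverse orientation with its first base 187 bases upstream of the start, beyond the start of DDX19B and within that gene. The core occurs in 3.62% of the 35116 windows of the RefSeq table. The interferon-stimulated element GAAANNGAAA occurred in the window of the second WARS start, 55 bases upstream, against 3.57% of all windows. That window also held TTCNNNGAA, the STAT motif found in 7.66% of windows. The E-box CACGTG, to which MYC and its relatives bind, occurred in the window of the second AIMP2 start, 75 bases upstream, against 7.26% of windows. CCAAT, on either strand, occurred in the AARS window, both WARS windows and that of the first AIMP2 start, and it is common, with 34.6% of windows. The 30 bases around the ATF4 core, the interferon-stimulated element and the E-box are shown with the motif in capitals, at chr16:70289675-70289704 (minus strand), chr14:100375383-100375412 (minus strand) and chr7:6009478-6009507 (plus strand) of GRCh38.p14:
AARS: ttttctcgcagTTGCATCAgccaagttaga
WARS: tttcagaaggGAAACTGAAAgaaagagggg
AIMP2: ccgggcgctggcCACGTGcaggtaggagcg

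All 3 genes were lower in shOGT. AARS had 9232, 8778 and 8322 normalized counts in shScramble and 2081, 2197 and 2082 in shOGT. The groups lay far apart, with every shOGT library below every shScramble library. Such a lack of overlap was the rule in the table, with 99.5% of all genes tested in either direction. The means were 8777 ± 455 and 2120 ± 66.6 (SD, n = 3 each), so 24.2% of the level was retained. The log2 fold change was −2.05 (SE 0.08, adjusted p = 4.96e-11 by limma and Benjamini-Hochberg), computed on log2(normalized count + 1) as for all genes below.

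WARS had 5664, 6201 and 5901 normalized counts in shScramble and 1724, 1840 and 1855 in shOGT. Here too the groups did not overlap, and the shOGT libraries were close to each other. Means of 5922 ± 269 and 1806 ± 71.8 (SD, n = 3 each) corresponded to 30.5% retained. The log2 fold change was −1.71 (SE 0.08, adjusted p = 2.22e-10 by limma and Benjamini-Hochberg).

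AIMP2 was expressed at a lower level, with 741, 777 and 690 normalized counts in shScramble and 269, 200 and 237 in shOGT. The groups did not overlap, while the shOGT libraries differed more among themselves than for the other genes, with replicate 4 highest and replicate 5 lowest. Means were 736 ± 43.5 and 235 ± 34.6 (SD, n = 3 each), and 32.0% was retained. The log2 fold change was −1.65 (SE 0.13, adjusted p = 1.81e-08 by limma and Benjamini-Hochberg). Exact permutation tests (two-sided, 3 libraries against 3) reached p = 0.1 for each of the 3 genes, which is as low as this design can go.

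**Figure D1:**
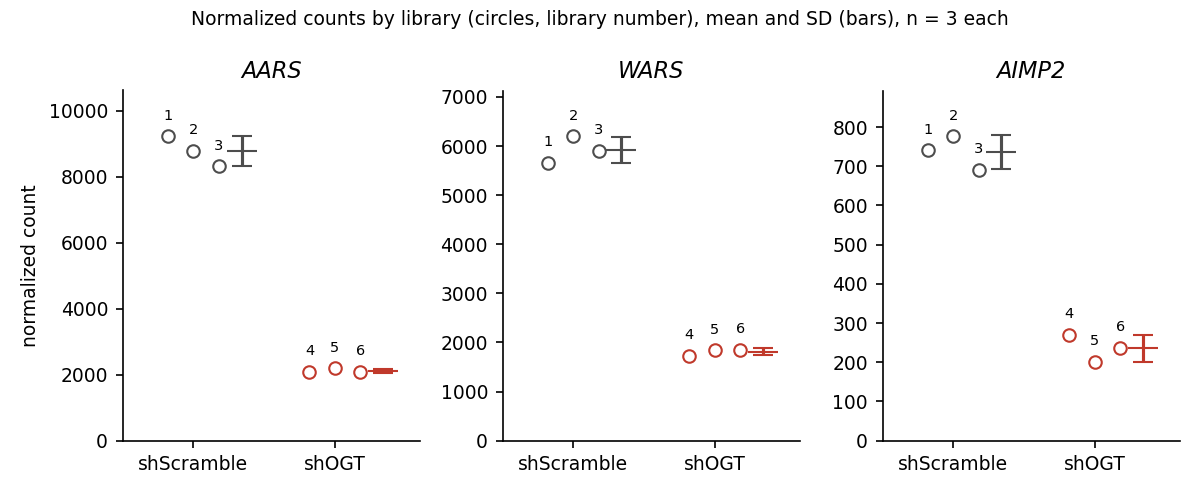
Normalized counts of AARS, WARS and AIMP2 in each library (circles, numbered by replicate) with the group mean and SD (bars, n = 3 each), on a separate axis per gene. In each panel all shOGT libraries sit below all shScramble libraries, at 24.2%, 30.5% and 32.0% of the shScramble mean.

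The depth behind these values differed between the genes. AARS was counted with 9044 to 10409 reads in shScramble and 1829 to 2051 in shOGT, where counting error was at most 2.34% and the coefficient of variation between replicates was 3.14%. For WARS in shOGT the counting error was at most 2.48%, with a coefficient of variation of 3.97%. AIMP2 rested on only 187 to 256 reads per shOGT library, with a counting error of up to 7.31% and a coefficient of variation of 14.7%. In shScramble the coefficients of variation were 5.18% for AARS, 4.54% for WARS and 5.91% for AIMP2, an order that the read counts did not follow. Counting errors cover the sampling of reads only. Among the 2677 genes called lower, 675 (25.2%) had a lower log2 fold change than AARS, 1080 (40.3%) than WARS and 1184 (44.2%) than AIMP2. The falls of the 3 genes thus lay within the ordinary range of the lower genes in the table.

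Per kilobase of gene length, AARS was the most abundant with 1951 ± 101 normalized counts per kb in shScramble, followed by WARS with 931 ± 42.3 and AIMP2 with 400 ± 23.7 (SD, n = 3 each). In shOGT the levels per kb were 471 ± 14.8, 284 ± 11.3 and 128 ± 18.8 (SD, n = 3 each), which kept this order with gaps wider than the SDs. WARS has many transcripts, and its gene length is longer than a single mRNA. Per kilobase of a single transcript (AARS-201, WARS-202 and AIMP2-201), the shOGT levels of AARS and WARS were 610 ± 19.2 and 584 ± 23.2 (SD, n = 3 each), a gap about as wide as the SDs. In shScramble they were 2524 ± 131 and 1915 ± 87.0 per kb of transcript (SD, n = 3 each), with AARS above WARS.

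Whether the 3 genes fell by the same factor was examined with log2 ratios within a library, which do not depend on how libraries are scaled. The log2 ratio of AARS to WARS was 0.70, 0.50 and 0.50 in shScramble and 0.27, 0.26 and 0.17 in shOGT. How often the ratios of other pairs of listed genes fail to overlap was not examined, for this or the next comparisons. For AARS to WARS the groups did not overlap, and the ratio was lower in every shOGT library. The difference was −0.34 (SE 0.08, exact permutation p = 0.1, the smallest possible, and 0.15 adjusted over 3 pairs with Benjamini-Hochberg), and the 9 differences between libraries ran from −0.54 to −0.22.

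The log2 ratio of AARS to AIMP2 was 3.64, 3.50 and 3.59 in shScramble and 2.94, 3.45 and 3.13 in shOGT. The groups did not overlap, although shOGT replicate 5 came close to shScramble. The difference was −0.40 (SE 0.15, exact permutation p = 0.1, or 0.15 adjusted), with differences between libraries from −0.69 to −0.05. The log2 ratio of WARS to AIMP2 was 2.93, 3.00 and 3.09 in shScramble and 2.67, 3.19 and 2.96 in shOGT. Here the groups overlapped, with a difference of −0.06 (SE 0.16, exact permutation p = 0.8, and 0.8 adjusted) and differences between libraries from −0.42 to 0.26. A difference in the fall of WARS and AIMP2 was not detectable, and one of the size seen for AARS lies within that range.

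**Figure D2:**
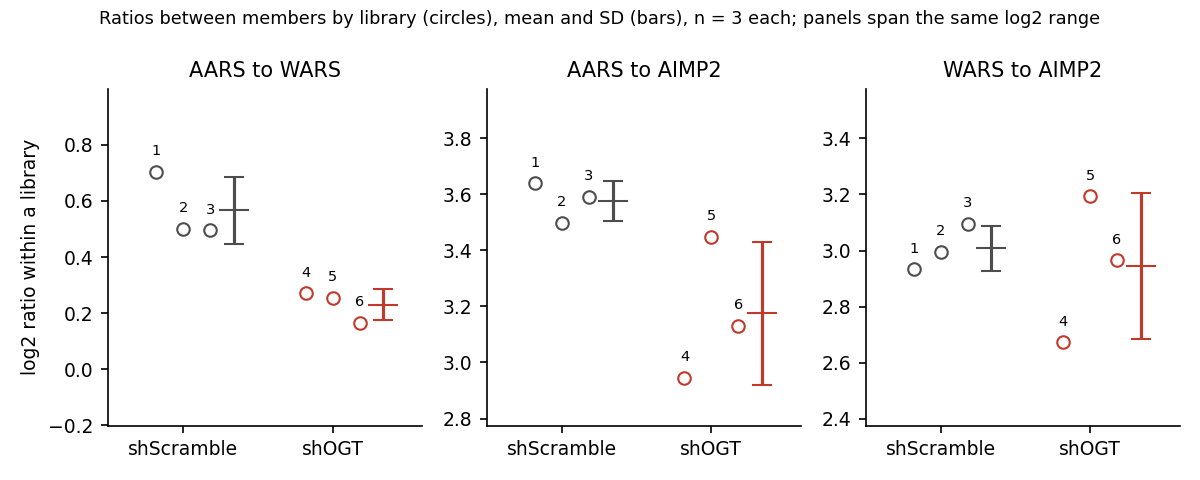
Log2 ratio of one gene to another within each library (circles, numbered by replicate) with the group mean and SD (bars, n = 3 each). The panels differ in position but span the same log2 range. AARS to WARS moved from 0.57 ± 0.12 to 0.23 ± 0.06 without overlap, whereas WARS to AIMP2 overlapped between groups. Other gene pairs were not examined.

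The cytosolic and mitochondrial synthetases and the scaffold proteins form a list of 45 genes, of which 12 were in the table. Of the 12, 11 were called lower and 1 higher, where 47.2% of all genes tested were called lower and 52.2% higher. The same shares stand beside the counts of lower and higher genes in every list below. Since the table holds few genes inside a 2-fold change, a median mostly shows which direction is more frequent. The median log2 fold change of the 12 was −1.54, beside 1.05 for all genes tested. The other 33 were not analysed here. Of 21 cytosolic synthetase genes 8 were listed, with AARS and WARS holding the lowest log2 fold changes. YARS, the tyrosyl enzyme, had 6789, 7182 and 6683 normalized counts in shScramble and 2279, 2362 and 2540 in shOGT, a log2 fold change of −1.52 (SE 0.08). FARSB, the beta subunit of the phenylalanyl enzyme, went from 1353, 1496 and 1381 to 386, 491 and 574, a log2 fold change of −1.56 (SE 0.13). Neither YARS nor FARSB belongs to the multi-tRNA synthetase complex.

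Of the 8 enzymes held in the complex that AIMP2 scaffolds, 4 were in the table. The aspartyl enzyme DARS went from 1403, 1675 and 1590 normalized counts to 533, 567 and 590, with 36.2% retained and a log2 fold change of −1.46. The leucyl enzyme LARS retained 44.8% (log2 fold change −1.16). The glutaminyl enzyme QARS retained 47.6% (−1.07), and its call rested on shScramble replicate 1 and shOGT replicate 6, without which it was −0.99 and −0.98. RARS, the arginyl enzyme, was the exception of the list. It had 1212, 1306 and 1234 normalized counts in shScramble and 3439, 3861 and 3921 in shOGT, a level of 299% and a log2 fold change of 1.58 (SE 0.09, adjusted p = 7.45e-10 by limma and Benjamini-Hochberg). The scaffold AIMP2 and this enzyme of the same complex thus moved in opposite directions. Groups did not overlap for either, as for 99.5% of all genes tested. Of the 3 scaffold genes only AIMP2 was in the table.

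The mitochondrial list had 3 of its 21 genes in the table, and all 3 were called lower. WARS2, the mitochondrial counterpart of WARS, had 314, 331 and 299 normalized counts in shScramble and 80.0, 130 and 93.3 in shOGT. This was 32.1% retained and a log2 fold change of −1.66, near that of WARS, though the difference between them was not tested. PARS2, the prolyl enzyme, retained 39.3% (−1.33). The alanyl counterpart of AARS was not in the table.

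**Figure D3:**
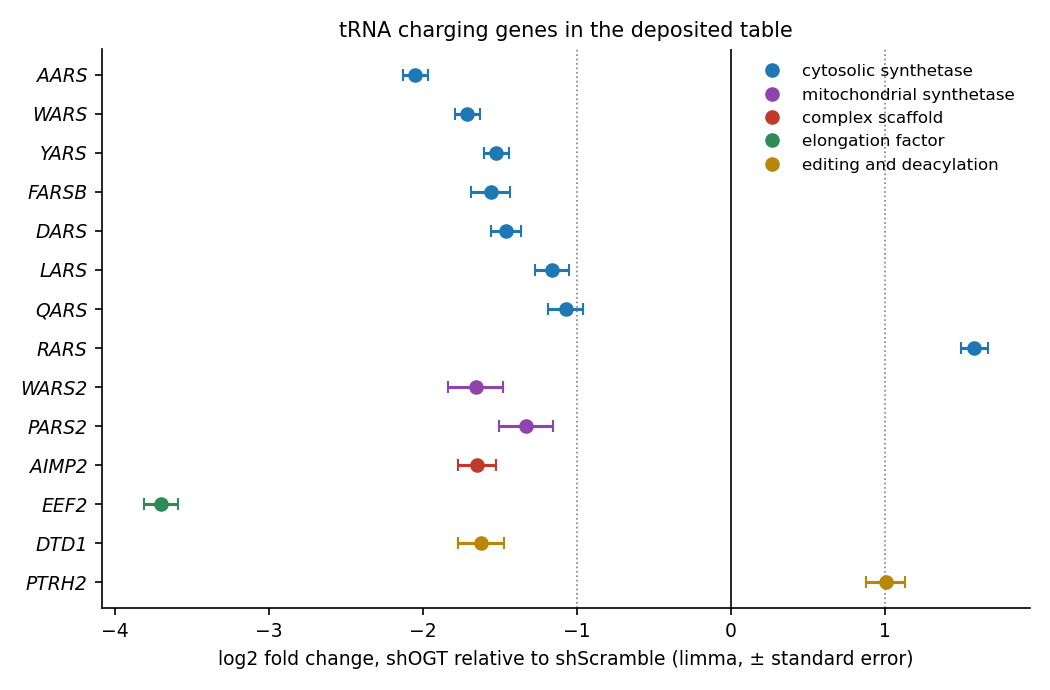
Log2 fold change (shOGT relative to shScramble, limma on log2(normalized count + 1)) of listed genes for tRNA charging, delivery and editing, with bars for the standard error and dotted lines at a 2-fold change. RARS and PTRH2 lie above 0, and EEF2 lies lowest at −3.70.

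The makeup of the listed charging transcripts differed between the groups. Summed per kilobase of gene length over the 12 listed genes, the level was 6230 to 6563 in the shScramble libraries and 2863 to 3117 in the shOGT libraries. Each of these genes had passed a 2-fold change and 11 were lower, so the table largely set the fall of that sum. AARS made up 29.7% to 32.4% of that sum in shScramble and 14.8% to 16.2% in shOGT, while WARS went from between 14.1% and 14.9% to between 9.36% and 9.47%. AIMP2 went from between 6.03% and 6.44% to between 3.53% and 5.12%. RARS went from at most 5.82% to at least 35.1%, and because RARS rose within the same sum the other shares had to shrink. With RARS left out of the sum, a choice made after these values were seen, AARS went from between 31.5% and 34.3% to between 23.5% and 24.9%. WARS was then at 14.9% to 15.8% in shScramble and 14.6% to 14.8% in shOGT, a far smaller shift, and AIMP2 overlapped between the groups, at 6.40% to 6.84% and 5.56% to 7.89%. These shares describe the listed genes and do not include the synthetases outside the table.

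Among steps next to charging, EEF2, the factor that moves the ribosome along the mRNA, was the only listed gene of 10 in the delivery list, although it does not itself bring charged tRNA to the ribosome. It had 30399, 23944 and 23857 normalized counts in shScramble and 2217, 1986 and 1796 in shOGT, with 7.67% retained and a log2 fold change of −3.70 (SE 0.11). Of 7 genes of tRNA editing and deacylation 3 were listed, 1 lower and 2 higher. DTD1, which removes D-amino acids from tRNA, retained 32.6% (−1.62). PTRH2, a peptidyl-tRNA hydrolase, was at 202% of its shScramble level, at the edge of the call.

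For tRNA processing and export, 3 of 4 listed genes (of 28) were lower, among them RPP25L (−2.46), a protein related to subunits of RNase P, while TRMT10C, a subunit of mitochondrial RNase P, was higher (1.09). The tRNA splicing subunit TSEN54 (−1.07) and the 3′ processing enzyme ELAC1 (−1.06) were also lower. For tRNA modification, 3 of 8 listed genes (of 75) were lower and 5 higher, with a median log2 fold change of 1.04. QTRT1 (−1.14), which inserts queuine, DUS3L (−1.13), a dihydrouridine synthase, and GTPBP3 (−1.10), a mitochondrial tRNA modifier, were lower, and TRUB2, a pseudouridine synthase, was higher (1.38). RNA polymerase III, which transcribes tRNA genes among others, had 4 lower and 2 higher of 6 listed genes (of 27). MAF1, its repressor, had a log2 fold change of −2.23, and SNAPC2 and GTF3C5 had −2.20 and −1.80, whereas the initiation factor BRF2 had 2.00. SNAPC2 and BRF2 act mainly at genes of this polymerase other than those of tRNAs. The tRNAs themselves were not measured, since the libraries were made from polyadenylated RNA according to the labels.

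A list of 23 genes around the response to uncharged tRNA, which also holds the other kinases of the translation factor eIF2, had 5 genes in the table, and all 5 were called lower. ATF4, the transcription factor of this response, had 4664, 4452 and 4158 normalized counts in shScramble and 2186, 2028 and 1960 in shOGT. It retained 46.5%, with a log2 fold change of −1.10. TRIB3, a pseudokinase and known ATF4 target, retained 21.6% (−2.21). EIF2AK2, an eIF2 kinase that responds to double-stranded RNA and not to uncharged tRNA, had −1.20, and EIF2B2, a subunit of the exchange factor of eIF2, had −1.11. ATF4 protein was not measured.

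Amino acid transporters had 5 lower and 1 higher of 6 listed genes (of 18), with a median log2 fold change of −1.81. SLC7A5, which carries tryptophan and other large neutral amino acids, retained 23.2% (−2.10). SLC43A1, another carrier of large neutral amino acids, retained 9.13% (−3.45), and SLC7A1, a carrier of cationic amino acids, had −2.02. SLC1A4, which carries alanine and serine, had −1.60. SLC6A14 was higher from 3 or fewer reads in every shScramble library. In alanine and tryptophan metabolism, 2 of 19 genes were listed and both were lower. GPT2, the mitochondrial alanine transaminase, had 5551, 5573 and 5413 normalized counts in shScramble and 2244, 1933 and 2080 in shOGT, with 37.8% retained (−1.40). AFMID, an enzyme of tryptophan breakdown, had −2.33.

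For the interferon gamma response, to which WARS belongs, 7 of 9 listed genes (of 28) were lower and 2 higher, with a median log2 fold change of −1.42. CXCL10 (−3.08), a chemokine, IRF9 (−2.76), a partner of STAT proteins, and GBP4 (−2.12), a guanylate-binding protein, were lower but of low level, with shScramble means of 55.8, 103 and 68.9. Of 7 proteins that AIMP2 is known to bind or regulate, 3 were listed. Among them, MYC had −1.07, whereas SMURF2, a ubiquitin ligase, had 1.27. Of 14 further partners of synthetases in signalling, RRAGC was higher (2.15), and RPL13A (−1.71) and TARBP2 (−1.07) were lower.

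The genes beside the 3 members were examined next. PMS2, across from AIMP2, had 358, 396 and 349 normalized counts in shScramble and 152, 181 and 158 in shOGT. It fell without overlap between groups, a lack of overlap shared by 99.5% of all genes tested. With 44.5% retained, its log2 fold change was −1.17 (SE 0.13, adjusted p = 1.17e-06 by limma and Benjamini-Hochberg), beside −1.65 for AIMP2. WDR25, across from WARS, had 129, 123 and 118 in shScramble and 65.3, 60.0 and 39.8 in shOGT, with 44.7% retained and a log2 fold change of −1.18 (SE 0.23, adjusted p = 0.000198 by limma and Benjamini-Hochberg), beside −1.71 for WARS, with which it shares exon bases. DDX19B, across from AARS, was not in the table, nor were EXOSC6, SLC25A47, BEGAIN and ANKRD61, the nearest genes on the other sides. Starts on the opposite strand within 1000 bases are found for 14 of the 45 charging genes (31.1%) and for 13.0% of 19922 protein-coding genes in the annotation, which is given as a description.

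**Figure D4:**
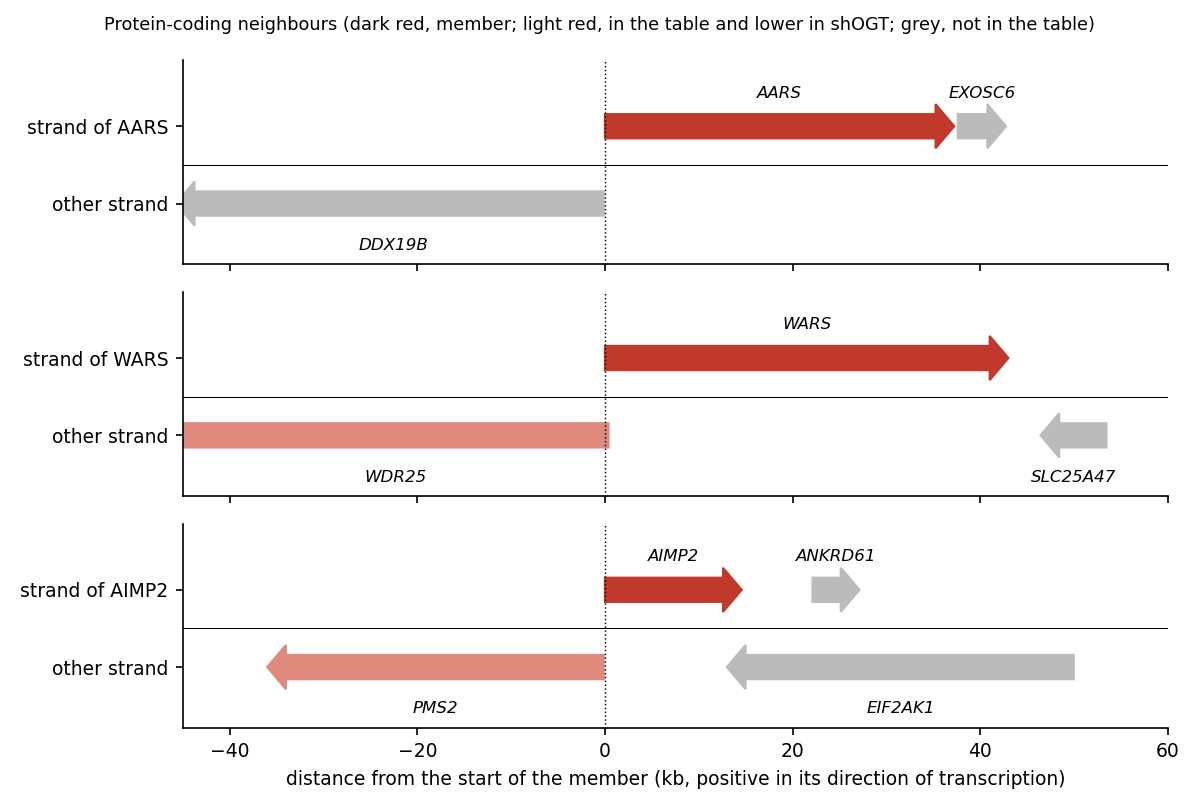
Protein-coding genes around AARS, WARS and AIMP2, by distance in kb from the start of each gene along its direction of transcription (arrows mark direction, and DDX19B and WDR25 run past the left edge). PMS2 and WDR25, in light red, start head to head with AIMP2 and WARS and were lower in shOGT, and grey genes were not in the table.

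Shared sequence limits some of these counts. Of the stretches of 75 bases in AARS-201, 0% occur in another gene. For WARS-202 the share was 5.60%, in WDR25 and AL157871.4, and exons of AL157871.4 on the opposite strand cover 6.06% of WARS exon bases. Exons of EIF2AK1, on the opposite strand and not in the table, cover 28.9% of AIMP2 exon bases and hold 39.9% of the stretches of AIMP2-201. WDR25 shares 287 exon bases with WARS on the opposite strand, and its counts are far below those of WARS. The counting is not stated to use strand, so reads of AIMP2 and EIF2AK1, or of WARS and WDR25, cannot be told apart in their overlaps, and how much of the WDR25 count is WARS was not tested. YARS shares 7.02% of its stretches with S100PBP and DARS 1.79% with DARS-AS1. Stretches were searched for the charging genes only, so PMS2 and the other genes named were not checked in this way.

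Profiles over the 6 libraries were compared with those of 2907 genes of the table with a mean of at least 100, by root mean square distance of centred log2 values. The nearest to AARS were CDC42EP4 (distance 0.0439), CREB3L2 (0.0502) and CDK2 (0.0560). Those nearest to WARS were LPIN2 (0.0319), ATPAF1 (0.0411) and STARD7 (0.0414). For AIMP2 they were DTD1 (0.0371), a gene of the editing list, DTYMK (0.0603) and MAP2K3 (0.0674). Counting errors in shOGT reached 7.31% for AIMP2 and 9.09% for DTD1, so the order of these neighbours is uncertain. The members lay farther from each other, at 0.185 for AARS and WARS, 0.252 for AARS and AIMP2 and 0.161 for WARS and AIMP2. Seen from AARS, WARS was at position 271 of the 2907 genes and AIMP2 at 494. Seen from AIMP2, WARS was at position 202 and AARS at 766. The distance depends in part on the log2 fold change, −1.62 for DTD1 and −1.65 for AIMP2, and shared regulation was not tested.

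Markers of colon epithelium were listed for 5 of 15 genes, and their summed level was 9080 to 10977 normalized counts in shScramble and 18480 to 20465 in shOGT. The sum rose through 2 of the 5, the keratins KRT20 (2.69) and KRT19 (1.39). The other 3 were lower, namely LGALS4 (−1.97), a galectin, ASCL2 (−1.50), a stem cell factor, and VIL1 (−1.12), the brush border protein villin, and the median log2 fold change of the list was −1.12. Of 8 immune markers CD14 and LYZ were listed, both higher, with LYZ at 7918 to 8617 in shScramble and 15652 to 17397 in shOGT. Of 8 fibroblast markers only PDGFRB was listed, with a summed level of at most 1.80 in shScramble and 17.1 in shOGT, and of 5 endothelial markers PECAM1 and CLDN5 were, with a summed level of 45.1 to 57.7 in shScramble and at least 129 in shOGT. That sum was nearly all PECAM1, which was higher (1.78), whereas CLDN5 was lower, at 2.76 to 6.21 in shScramble and at 0 in every shOGT library. Every library came from the HT-29 line, so these values are levels of marker genes and not amounts of other cell types. The part of these markers in the fall of the charging genes was not tested.

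Some calls were lost under another scaling of the libraries. Scaling by medians of ratios computed from the listed genes, in place of the size factors of the authors, shifted the middle of the log2 fold changes upward by 0.71. The median over the genes of the table went from 1.05 to 1.76. This scaling assumes that most genes are unchanged, whereas the table lists only genes past a 2-fold change. The calls lost under it therefore do not settle how firm those calls are. AARS, at −1.33, was still called, whereas WARS at −0.99 and AIMP2 at −0.93 stayed lower but no longer passed the 2-fold change. Over the whole table, 1089 genes were then called lower and 2980 higher, beside 2677 and 2959 with the scaling of the authors. Of the 12 charging genes, 2 were called lower, AARS among them, beside 11.

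**Figure D5:**
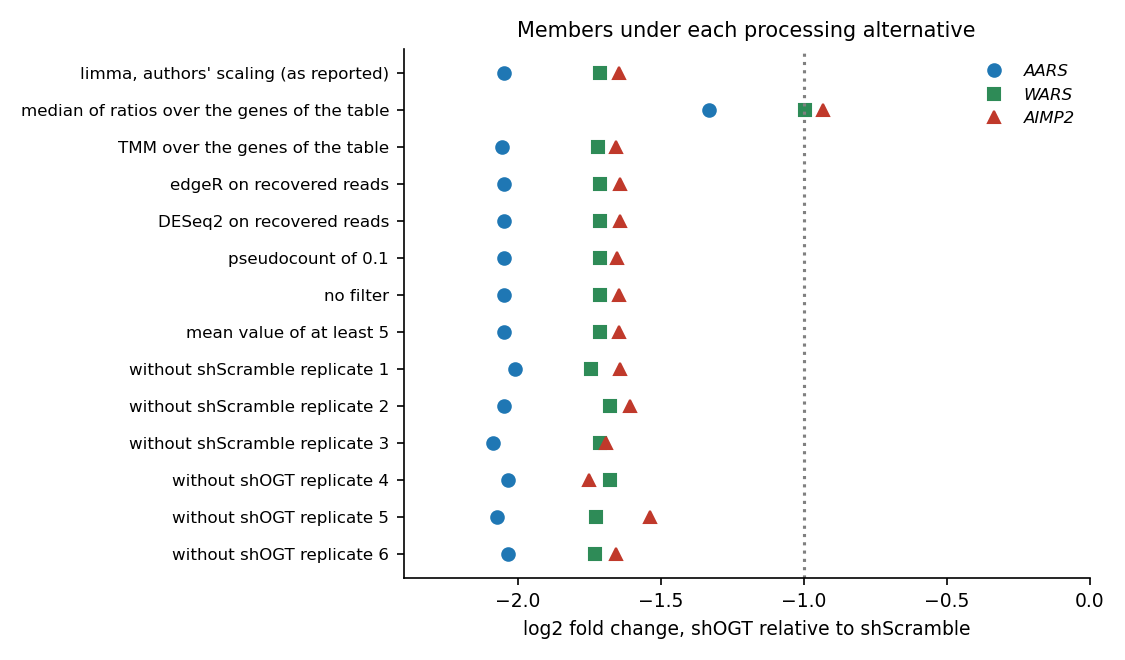
Log2 fold change of AARS, WARS and AIMP2 under each processing alternative, with the 2-fold change marked. Only median-of-ratios scaling on the listed genes brought WARS (−0.99) and AIMP2 (−0.93) inside the 2-fold change, and AARS stayed outside it under every alternative shown.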

How the data were processed

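The authors deposited 1 table with a signal value per gene and library (read counts divided by a size factor, with no division by length), and their group means, which were not used. The deposited columns of the authors' own comparison (log2 fold change, p-value, adjusted p-value) served only to find the limits of the table, which are a change of 2-fold and 0.05 for the adjusted p-value. The gene length used was that deposited by the authors. The submitters' processing notes name cutadapt 1.9, HISAT2 2.0.4, UMI-tools, StringTie 1.3.4d, DESeq2 and edgeR, and the mouse build mm8, although identifiers and positions match human GENCODE version 29 for all 5681 genes. The labels describe oligo(dT) capture, dUTP marking and unique molecular identifiers, and the paper's methods another stranded kit. Use of strand in counting is not given in the sources used here.

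Whole reads were recovered within a tolerance of 0.02. limma 3.58.1 (trend, R 4.3.3) modelled log2(normalized count + 1) by group alone in the 5671 genes that reached 1 in 3 or more libraries, with Benjamini-Hochberg adjustment. The plan foresaw counts or normalized values, and the branch for normalized values was followed. Exact permutation tests were two-sided (SciPy 1.17.1). The limma, edgeR and DESeq2 fits were tested on simulated counts in which most genes were unchanged, unlike in this table. Alternatives were other scalings (median of ratios, TMM), edgeR 4.0.16 quasi-likelihood and DESeq2 1.42.0 on the recovered reads, a pseudocount of 0.1, no filter, a mean of at least 5, and each library left out. Named genes were the members, all listed genes of the charging, delivery and editing lists, up to 4 genes of every other list, taken by size of log2 fold change among those with a mean of at least 10, the 3 nearest profiles of each member, neighbouring genes and OGT. SLC1A4, VIL1, CLDN5 and PDGFRB were named after their values were seen. A few genes that this rule names are not reported here. The members and lists were chosen with earlier results of these data known.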

Additional observations from a re-analysis of the deposited data

How the results depend on the processing

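Directions of the 12 charging genes were kept under all alternatives run, and 0 of the values reversed. Of 84 values under a changed scaling, test, pseudocount or filter, 75 kept their side of the thresholds and 9 did not. All 9 were under median-of-ratios scaling on the listed genes. The genes had entered the table by a call on these same libraries, and the edgeR and DESeq2 fits used the authors' size factors. Kept calls and directions were thus largely set in advance and are no independent support. Median-of-ratios scaling assumes that most genes are unchanged, an assumption that the table does not meet. It shifted the median of the whole table by 0.71 and gave −0.99 for WARS (adjusted p = 8.40e-07 by limma and Benjamini-Hochberg) and −0.93 for AIMP2 (5.67e-06), together with −0.75 for DARS, −0.84 for FARSB, −0.44 for LARS, −0.36 for QARS, −0.81 for YARS, −0.62 for PARS2 and −0.94 for WARS2. The count called lower was 1089 over the table, beside 2677, and 2 among the charging genes, beside 11. TMM, computed on the same listed genes with a like assumption, moved the median by −0.01, and the calls kept under it settle no more. Leaving out single libraries gave log2 fold changes from −2.09 to −2.01 for AARS, from −1.74 to −1.68 for WARS and from −1.75 to −1.54 for AIMP2. Of 72 such values 70 kept their call, and QARS lost it in the other 2, with a range from −1.18 to −0.98. The differences in log2 ratio ran from −0.37 to −0.27 for AARS to WARS and from −0.54 to −0.29 for AARS to AIMP2 in the same way, whereas that of WARS to AIMP2 ran from −0.19 to 0.07, with the positive value without shOGT replicate 4. No paired analysis was possible because the replicate numbers 1 to 6 are not shared between the groups. Depth limits AIMP2 most, with at most 256 reads per shOGT library.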
